A study of Homo sapiens with 17 samples.

Results

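The comparison described here sets SOX2 against SOX2 carrying the C-terminal domain (CTD) of FOXA2, a fusion protein, by the sites each occupied on chromatin. Both were mapped by ChIP-seq with a Flag antibody in U2OS, a human osteosarcoma cell line. The genotype labels are Tet-on SOX2 for the SOX2 group and Tet-on SOX2FOXA2CTD for the fusion group, and all samples of both were treated with 500 ng/ml doxycycline for 4 days to switch the transgene on. The extract protocol writes this dose per µl, and the unit was not settled. The groups are 4 of the 17 samples of the series, 2 biological replicates in each group by their titles. Lists of U2OS cells with Tet-on FOXA2 or Tet-on FOXA2dCTD, which lacks the CTD, under the same induction served as references. The lines are described as stable, and whether each is a clone or a pool is not given in the sources used here, nor is the level of each protein. No peak list of uninduced or parental cells was analysed here. Peak lists hold no expression of marker genes, so the label of the cell line was not checked.

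The members are the peaks of the first replicate of each group on chromosomes 1 to 22 and X. There were 13788 for SOX2 and 42289 for the fusion, 56077 in all, chosen by sample and chromosome alone. A second list per group, combined by its authors from both replicates, served as a check and held 1365 and 7844 peaks. Whether it was made from the first-replicate peak calls used here is not known. Each group thus has 1 list of each kind, so no test between replicates was possible. The 95% intervals given cover counting error over peaks, genes or promoters and say nothing about the spread between cultures. The depth of the libraries is unknown, and a deeper library yields more peaks.

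SOX2 is a transcription factor of the SRY-related HMG-box family, which bends DNA at short sites with a core such as ACAAAG or ACAATG. It acts as a pioneer factor, able to bind sites in closed chromatin, and is best known for maintaining pluripotent and neural stem cells. FOXA2 is a forkhead pioneer factor of the endoderm, liver and gut. Its forkhead domain recognises DNA, while its CTD lies outside that domain. By its label the fusion joins this CTD to full-length SOX2.

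The promoter table of RefSeq (GRCh38.p14) gave a window of 300 bases, 250 before and 50 after the start, for 15811 of 19970 protein-coding genes. The 250 bases before the start are printed for 5 genes whose ends held strong peaks that recurred in the combined list, 4 with a SOX motif and 1 without, to show where the motif lies. YDJC and EXD3 had a peak with both proteins, and ZNF106, VANGL2 and CDK12 with the fusion alone. Each is read 5′ to 3′ on the gene's strand. Capitals mark a SOX motif, ACAAAG or ACAATG on either strand, where the reverse complements read CTTTGT and CATTGT.
YDJC, chr22:21630023-21630272, minus strand: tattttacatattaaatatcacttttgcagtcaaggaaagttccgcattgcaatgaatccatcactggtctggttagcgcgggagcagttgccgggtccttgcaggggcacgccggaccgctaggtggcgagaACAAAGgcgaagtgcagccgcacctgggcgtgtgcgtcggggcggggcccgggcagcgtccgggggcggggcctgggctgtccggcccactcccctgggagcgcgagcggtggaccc
EXD3, chr9:137423163-137423412, minus strand: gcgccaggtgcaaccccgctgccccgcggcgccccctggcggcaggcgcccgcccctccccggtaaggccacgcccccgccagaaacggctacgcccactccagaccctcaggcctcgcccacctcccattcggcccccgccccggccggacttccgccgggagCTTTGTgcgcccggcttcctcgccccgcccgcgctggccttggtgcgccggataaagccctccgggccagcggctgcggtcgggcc
ZNF106, chr15:42491142-42491391, minus strand: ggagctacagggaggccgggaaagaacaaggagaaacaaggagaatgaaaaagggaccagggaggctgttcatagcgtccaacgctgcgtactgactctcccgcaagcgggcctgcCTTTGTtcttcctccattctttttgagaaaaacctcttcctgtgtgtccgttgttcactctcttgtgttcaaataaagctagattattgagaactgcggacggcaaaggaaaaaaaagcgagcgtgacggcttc
VANGL2, chr1:160400314-160400563, plus strand: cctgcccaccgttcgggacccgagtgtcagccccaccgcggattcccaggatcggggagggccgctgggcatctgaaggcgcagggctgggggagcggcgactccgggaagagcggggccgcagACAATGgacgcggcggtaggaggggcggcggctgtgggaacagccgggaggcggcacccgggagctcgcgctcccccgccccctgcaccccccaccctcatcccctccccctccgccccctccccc
CDK12, chr17:39461236-39461485, plus strand: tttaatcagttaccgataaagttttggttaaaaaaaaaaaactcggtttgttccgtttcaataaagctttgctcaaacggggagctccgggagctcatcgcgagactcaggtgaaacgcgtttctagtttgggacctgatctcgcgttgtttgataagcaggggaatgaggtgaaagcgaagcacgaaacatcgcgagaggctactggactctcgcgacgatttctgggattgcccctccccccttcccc

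In YDJC the summit of the SOX2 peak lay 52 bases after the first base of the motif, and in EXD3 45 bases after it. For the fusion peak of ZNF106 the distance was 29 bases, and in VANGL2 the summit lay 5 bases before the motif. Of the 11 genes named for peaks at their ends that have such a sequence, 4 held a SOX motif in these 250 bases. The other 7, CDK12, ADRM1, TSC1, ZNF335, HEMK2, GUCD1 and CEP192, did not. At HEMK2, GUCD1 and CEP192 the summit lay outside these bases, 150, 67 and 253 bp after the start. The lack of a motif there does not describe the sequence at the summit. A match describes the letters of the window and does not show a bound site.

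Over all promoters the SOX motif was found in 3059 of 15811 windows, or 19.3% (95% Wilson interval 18.7 to 20.0). Windows that held a SOX2 summit carried it in 43 of 92 (46.7%, 36.9 to 56.9). Among windows with a fusion summit the share was 193 of 653 (29.6%, 26.2 to 33.2), a difference of -17.2 percentage points from SOX2 (Newcombe interval -27.9 to -6.68). With the 13788 strongest fusion peaks it was -10.2 points (-22.9 to 2.80), with the combined lists -21 (-50.2 to 5.15) and with a −log10 p of at least 5 in both lists -15.8 (-45.8 to 19.3), so these 3 intervals include no difference. It was 30 of 53 (56.6%, 43.3 to 69.0) where both proteins had a summit. The 600 windows with a fusion summit and no SOX2 summit held the motif in 27.2% (23.8 to 30.9). With the fusion peaks of a −log10 p of at least 5 the share was 19 of 46 (41.3%, 28.3 to 55.7). Where the fusion occupied the window in both of its lists it was 45 of 165 (27.3%, 21.1 to 34.5).

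**Figure D1:**
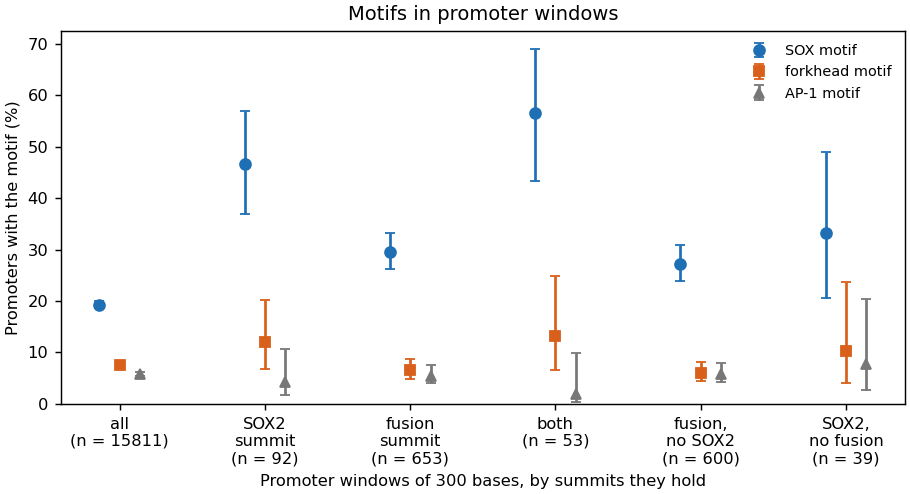
Share of promoter windows of 300 bases (y axis, percent) that hold a SOX, forkhead or AP-1 motif, by the summits that lie in them (x axis, with the number of windows). With bars for 95% Wilson intervals over windows, the SOX motif stands at 19.3% of all windows, 46.7% of those with a SOX2 summit and 29.6% of those with a fusion summit.

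The forkhead motif, searched on both strands as TGTTTAC, as its variant with a changed second base, TATTTAC, or as the variant with a changed sixth base, TGTTTGC, was found in 7.53% of all promoter windows (7.13 to 7.95). With a fusion summit the share was 6.58% (4.93 to 8.75), and with a SOX2 summit 11 of 92, or 12% (6.81 to 20.2). Both intervals included the share of all promoters. The motif of AP-1, the FOS and JUN dimer that marks many open sites, was searched as TGANTCA. Its shares were 5.76% of all windows, 4.35% with SOX2 and 5.51% with the fusion. The median GC content of a window was 62.7% over all promoters, 60.5% with a SOX2 summit and 63.7% with a fusion summit.

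In peak number the fusion list was the larger one, with 3.07 peaks for each SOX2 peak (3.01 to 3.13). Their median width was 305 bp for SOX2 and 311 bp for the fusion, and the median fold enrichment over local background, a value of the authors' peak caller, was 3.20 and 3.06. The median −log10 p was 3.23 and 3.22, and both lists ended at 1.70. At a q-value of at most 0.05, which corrects for the number of places tested, 1437 SOX2 and 8430 fusion peaks remained. Covered sequence came to 4.90 Mb for SOX2 and 15.2 Mb for the fusion. In the combined lists this direction depended on the irreproducible discovery rate (IDR), a measure of how well replicates rank a peak alike. The combined SOX2 list ends at an IDR of 0.1 and that of the fusion at 0.912. Restricted to IDR values up to 0.1, the fusion had 0.569 peaks for each SOX2 peak. Of the 1365 combined SOX2 peaks 91.2% lay in the longest stretch of their chromosome without an annotated gene. Outside these stretches, without an IDR limit, the combined lists gave 47.7 fusion peaks for each SOX2 peak.

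Most SOX2 sites were found again with the fusion, and most fusion sites were not found with SOX2. Of the 13788 SOX2 peaks 10310, or 74.8% (74.0 to 75.5), overlapped a fusion peak by at least 1 bp. Of the 42289 fusion peaks 10289, or 24.3% (23.9 to 24.7), overlapped a SOX2 peak. The lists differ in length, which limits how high the second share can be. When the fusion list was shortened to its 13788 strongest peaks, the shares were 48.4% and 48.0%.

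Sharing went up with strength. Ranked by −log10 p, the share found with the fusion was 61.3% in the weakest 25% of the SOX2 list and 89.0% in the strongest 25%. Outside the gene-free stretches, 1466 of 1508 SOX2 peaks with a −log10 p of at least 5 overlapped some fusion peak (97.2%, 96.3 to 97.9), and 42 did not. In the fusion list the share found with SOX2 went from 8.98% in the weakest 25% to 54.5% in the strongest. Of 6062 fusion peaks with a −log10 p of at least 5 outside the stretches, 3925 overlapped some SOX2 peak (64.7%, 63.5 to 65.9), and 2137 did not.

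**Figure D2:**
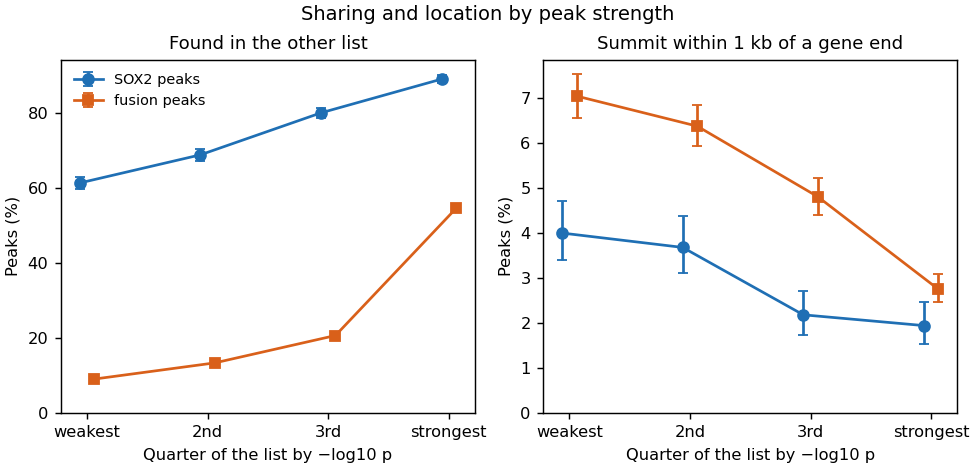
Each list was cut into 4 parts of 25% by −log10 p (x axis, weakest to strongest), with points for the percent of peaks and bars for 95% Wilson intervals over peaks. At left, the share found in the other list climbs from 61.3% to 89.0% for SOX2 and from 8.98% to 54.5% for the fusion, and at right the share at gene ends goes down with strength in both lists.

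Peaks present in a single list had lower medians of width and fold than shared ones. In the fusion list the median width was 434 bp for shared peaks and 285 bp for the others, and the median fold enrichment 3.88 and 3.01. The SOX2 list showed 329 and 252 bp, with 3.31 and 2.91. The summit of a fusion peak lay within 10 kb of 44.6% of the 3478 SOX2 peaks without a fusion peak and within 100 kb of 97.6%. For the 32000 fusion peaks without a SOX2 peak these shares were 14.5% and 61.7%, though the SOX2 list offers fewer neighbours. Both depend on the density of the other list, a median over autosomes of 15.4 fusion and 4.97 SOX2 peaks per Mb. Shares for random positions were not determined, so these values do not show that such peaks lie closer than any position would. The gene-free stretches held 16.8% of the SOX2 peaks that lacked a fusion peak (15.6 to 18) and 6.02% of the shared ones (5.58 to 6.50).

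The fusion peaks without a SOX2 peak lay at gene ends more often than shared ones. Counting a gene end as any position up to 1 kb from a start or stop of a protein-coding gene's span, summits were found there for 1941 of the 32000 fusion peaks without a SOX2 peak, or 6.07% (5.81 to 6.33). Among shared fusion peaks the share was 2.69% (2.4 to 3.02), a difference of 3.37 points (2.95 to 3.77). SOX2 peaks without a fusion peak also lay there more often than shared ones, at 4.03% (3.42 to 4.73) against 2.59% (2.30 to 2.91). Over whole lists the fusion exceeded SOX2 by 2.29 points (1.93 to 2.64). By strength, from the weakest 25% of each list to the strongest, the fusion's share was 7.05%, 6.38%, 4.81% and 2.75%, and that of SOX2 4%, 3.68%, 2.18% and 1.94%, so the fusion was higher in each. The difference was 0.602 points (-0.146 to 1.21) among peaks with a −log10 p of at least 5, and 0.0508 points (-0.351 to 0.453) when the 13788 strongest fusion peaks were set against all SOX2 peaks. In the combined lists it was 8.03 points (6.94 to 8.94), and in the combined lists outside the gene-free stretches, where SOX2 has 120 peaks, it was -8.07 points (-16.3 to -1.57).

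Inside the span of protein-coding genes lay 39.7% of SOX2 peaks (38.8 to 40.5) and 41% of fusion peaks (40.6 to 41.5). The difference of 1.37 points changed sign outside the gene-free stretches, to -0.969 points (-1.96 to 0.0195). Summits more than 50 kb from any protein-coding gene made up 43.0% of the SOX2 list and 39.3% of the fusion list. Outside the stretches these shares were 37.5% and 37.1%, a difference of -0.391 points (-1.36 to 0.573). Whether a summit lay in an exon, an intron or a UTR was not determined.

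By chromosome, the fusion had more peaks than SOX2 on all 23 chromosomes compared. The ratio over the 22 autosomes ran from 2.12 on chromosome 22 to 3.83 on chromosome 13, with a median of 2.93. On chromosome X it was 9.63 (7.53 to 12.3), from 70 SOX2 and 674 fusion peaks. SOX2 had 0.449 peaks per Mb there, 9.03% of its autosomal median of 4.97, and the fusion had 4.32, or 28.1% of its median of 15.4. Full-length FOXA2, mapped in the same cell line, had 3.26 per Mb on X, which is 20.9% of its own median. SOX2 had 2 X peaks with a −log10 p of at least 5 and the fusion 29. The combined lists had 0 SOX2 peaks on X, which allows up to 3, and 16 fusion peaks. Outside the gene-free stretches the ratio was 11.2 on X and next highest, 7.45, on chromosome 19, where 87 of the 107 SOX2 peaks lay in the stretch.

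**Figure D3:**
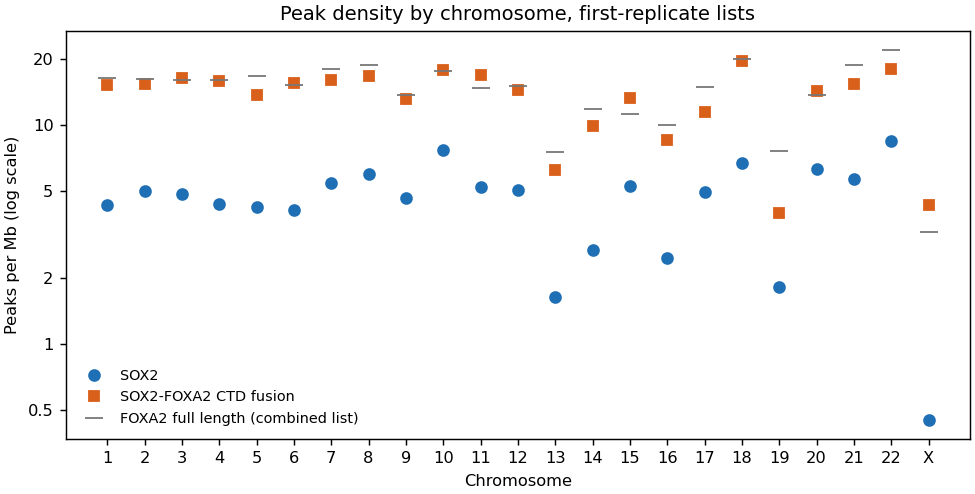
Peaks per Mb (y axis, log scale) on each chromosome (x axis) in the first-replicate lists of SOX2 (circles) and the fusion (squares), with the combined list of full-length FOXA2 (dashes), and no error since there are no replicates. SOX2 on chromosome X, at 0.449 per Mb, stands lowest, below its autosomal range of 1.64 to 8.50.

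At the scale of 1 Mb the peaks of both proteins clustered in many of the same windows. Of 2649 windows more than 5 Mb from a gene-free stretch, 2045 held a SOX2 summit, and 2042 of these also held a fusion summit. A fusion summit without any SOX2 summit was found in 482 windows (18.2%), 69 of them on chromosome X, and the reverse in 3. The median window had 3 SOX2 and 12 fusion peaks. Across windows, which are not independent replicates and share the regional make-up of 1 cell line, the Spearman correlation of both numbers was 0.858. With full-length FOXA2, another protein in the same cells, it was 0.736 for SOX2 and 0.761 for the fusion. The 10% of windows richest in SOX2 peaks held 37.4% of them, against 24.1% for the fusion, and 169 of the 265 windows were in both sets.

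**Figure D4:**
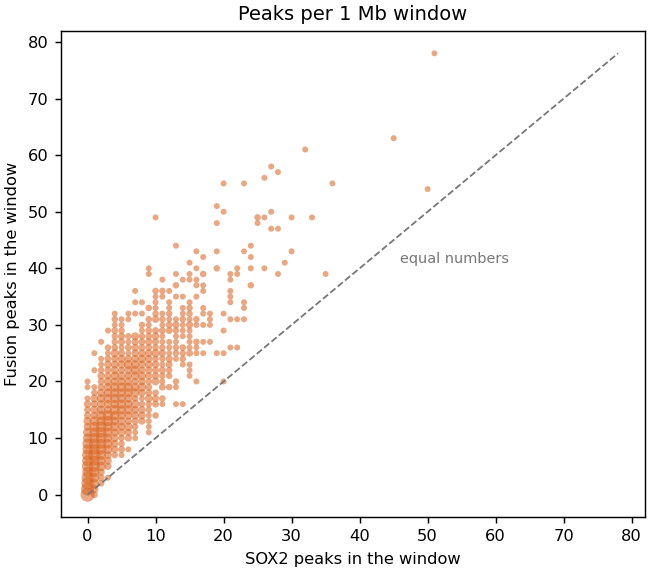
Number of SOX2 peaks (x axis) and fusion peaks (y axis) in each of 2649 windows of 1 Mb more than 5 Mb from the longest gene-free stretches; larger points stand for more windows, and the dashed line marks equal numbers. Most windows lie above the line, and the richest, with 51 and 78 peaks, is the richest for both.

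Several windows ranked high for both proteins. The window from 3 to 4 Mb of chromosome 18, which holds DLGAP1, MYOM1 and LPIN2, had 51 SOX2 and 78 fusion peaks. On chromosome 9 the window from 27 to 28 Mb, with LINGO2, MOB3B and the angiopoietin receptor gene TEK, had 45 and 63. Chromosome 22 had 50 and 54 peaks between 28 and 29 Mb, over TTC28, ZNRF3 and CHEK2. Full-length FOXA2 had 47, 40 and 69 peaks in these windows. Fusion peaks without SOX2 peaks were found in windows such as 81 to 82 Mb and 82 to 83 Mb of chromosome X, with 20 and 19 peaks against 0. A count of 0 allows up to 3 SOX2 peaks. FOXA2 had 9 and 11 peaks there.

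A gene was called occupied when a summit lay in its span or within 5 kb of either end. By this rule SOX2 occupied 3249 protein-coding genes, which is 16.3% of 19970, and the fusion 7627, which is 38.2%, a ratio of 2.35 (2.25 to 2.45). Both occupied 3047 genes (15.3%). These are 93.8% of the SOX2 genes (92.9 to 94.6) and 40.0% of the fusion genes (38.9 to 41.1). The fusion without SOX2 was found at 4580 genes (22.9%) and SOX2 without the fusion at 202 (1.01%). With equal numbers of the strongest peaks the ratio was 1.06 and the share of SOX2 genes found again 69.7%. Occupied in both the first replicate's list and the combined list were 67 genes for SOX2 (0.336%) and 2282 for the fusion (11.4%). The combined lists end at unlike IDR values, so these counts share no common limit. Of those 67, the fusion's first replicate occupied 64.

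Long genes offer more room for a summit, and occupancy went with length. In the shortest 25% of genes, with a median of 3.89 kb, SOX2 occupied 3.59% and the fusion 15.2%. In the longest 25%, with a median of 128 kb, these shares were 41.8% and 74.3%. The median length was 109 kb for genes of both, 43.3 kb for genes of the fusion alone and 14.5 kb for genes of neither. At least 10 peaks were found in 51 genes with SOX2 and 305 with the fusion. At gene ends, where length matters less, SOX2 had a summit for 425 genes (2.13%) and the fusion for 2293 (11.5%), 5.40 times as many, with 308 in common (1.54%).

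Among the 3351 genes longer than 100 kb, the densest in SOX2 peaks was NSUN6, an RNA cytosine methyltransferase gene on chromosome 10. It held 15 SOX2 and 11 fusion peaks, 12.1 and 8.89 per 100 kb, against medians of 0 and 1.23. TTC28 (46 and 47 peaks), ARID5B (13 and 18), BRIP1 (12 and 9) and MOB3B (13 and 20) followed. ARID5B encodes a DNA-binding cofactor, and BRIP1 a helicase of DNA repair. In fusion peaks SMARCA4, the ATPase of the BAF chromatin remodelling complex, ranked first, with 12 peaks (10.8 per 100 kb) against 1 with SOX2. The combined fusion list held 4 peaks there and that of full-length FOXA2 held 0. VMP1, a gene of autophagy on chromosome 17, had 14 fusion and 8 SOX2 peaks. In the combined lists NSUN6 had 0 SOX2 peaks and 1 fusion peak. Full-length FOXA2 had 59 peaks in TTC28, 14 in BRIP1, 12 in ARID5B, 10 in VMP1, 9 in MOB3B and 1 in NSUN6.

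The genes of known pathways are described by lists, read against the shares over all protein-coding genes. The lists differ from the average gene in length: their median runs from 5.04 kb for the SOX family to 20.9 kb for the AP-1 and YAP-TEAD genes, against 24.2 kb overall.

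In the SOX family, 5 of 18 genes other than SOX2 were occupied with SOX2 (27.8%, 12.5 to 50.9) and 6 with the fusion (33.3%, 16.3 to 56.3), which includes all 5. Over all genes the shares were 16.3% and 38.2%, within these intervals. SOX5, SOX6 and SOX13 form the SoxD group, which lacks an activation domain of its own. SOX5, a gene of 1030 kb, held 15 SOX2 and 39 fusion peaks. Its strongest, on chromosome 12 at 23895962 to 23896437 with SOX2 and 23895967 to 23896568 with the fusion, had a fold enrichment of 6.34 and 10.1. SOX6 had 3 and 11 peaks and SOX13 had 1 and 3. At SOX9, the master regulator of cartilage, a SOX2 peak lay within 1 kb of an end, on chromosome 17 at 72125303 to 72126064, with a −log10 p of 5.86. The fusion peak over it reached 7.08. SOX21, a neural repressor of the SoxB2 group, had 1 peak with each, and SOX1, the SoxB1 relative of SOX2, 1 with the fusion. Fusion peaks of SOX13, SOX5 and SOX1 lay in genes that the combined fusion list also occupies, and the combined SOX2 list occupied none of the 18. The strongest fusion peak of SOX5 did not overlap the combined fusion list.

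Among pluripotency and neural target genes of SOX2, 27 of 28 listed were found in the gene table. SOX2 occupied 5 (18.5%) and the fusion 9 (33.3%), against the 16.3% and 38.2% of all genes. NOTCH1, the receptor that keeps neural progenitors undifferentiated, had the strongest peak of the list. It lay 266 bp outside the gene on chromosome 9. In the SOX2 list it ran from 136546190 to 136546501, at a fold enrichment of 4.52. In the fusion list it ran from 136546038 to 136546534, at 9.40, and it recurred in the combined fusion list. PRDM14, a pluripotency regulator, had 1 peak with each, at 4.03 and 4.31. POU3F3, a neural POU factor, had 1 and 4. LIN28B, which blocks the let-7 miRNAs, had 2 fusion peaks with a −log10 p of up to 7.36 and 0 with SOX2. SALL4, HES1, GLI2 and PTPRZ1 also had peaks with the fusion alone, at a −log10 p of up to 2.9, 2.43, 1.72 and 2.9. DPPA4 was the only gene of the list with a SOX2 peak alone, at a −log10 p of 3.16. NANOG, POU5F1, PAX6 and NES were occupied by neither.

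Of 28 endoderm and liver genes known as FOXA2 targets, SOX2 occupied 5 (17.9%) and the fusion 11 (39.3%). HNF4A and HNF4G, nuclear receptors of the liver and gut, had a peak with both. FOXA1, a close relative of FOXA2, had 1 with each and was occupied in both combined lists too. As a gene expressed from a transgene in this series, the origin of its reads was not tested. APOB, which encodes the main protein of low-density lipoprotein, had a peak on chromosome 2 at 21038474 to 21039142 with SOX2 (−log10 p 4.90) and at 21038509 to 21039245 with the fusion (9.07). PROX1, a regulator of hepatocyte and lymphatic fate, had 4 fusion peaks, up to a −log10 p of 7.98, and 0 with SOX2. CPS1, an enzyme of the urea cycle, had 5 fusion peaks and 1 SOX2 peak. The serum protein genes ALB, AFP and TTR, and the regulators GATA6 and ONECUT1, had fusion peaks alone. The strongest −log10 p was 4.98 at ALB, 3.22 at GATA6 and 2.43 at TTR. At AFP and ONECUT1 it was 1.72, near the 1.70 at which the list ends. The combined fusion list occupied none of ALB, AFP, TTR, GATA6 and ONECUT1. It did occupy PROX1 and HNF4A, without overlapping their strongest first-replicate fusion peaks. SOX17, HHEX and CXCR4 were occupied by neither.

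Osteoblast genes belong to the lineage of the cell line. Of 26 osteoblast and mesenchymal regulators SOX2 occupied 3 (11.5%, 4 to 29) and the fusion 14 (53.8%, 35.5 to 71.2), 11 of them with the fusion alone, a class that held 22.9% of all genes. The intervals for SOX2 and for the fusion each included the share of all genes. They do not cover the 11 of 26 with the fusion alone, for which no interval was determined. RUNX2, the master regulator of osteoblasts, held 5 fusion peaks and 0 SOX2 peaks, with a −log10 p of up to 3.97. SP7, which acts after RUNX2 in bone formation, held 4, and the combined list occupied it too, without overlapping its strongest peak. SPP1 (osteopontin) had 2, and IBSP (bone sialoprotein), TWIST1 and ATF4 had 1. RUNX1 had 5, and the combined fusion list occupied the gene without overlapping its strongest peak. ALPL and COL1A2 were among those with peaks of both. Full-length FOXA2 had 5 peaks at RUNX2, 9 at RUNX1 and 0 at SP7. The strongest fusion peak at any gene of the list had a −log10 p of 4.98.

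Of 26 AP-1 and YAP-TEAD genes, the effectors of growth factor and Hippo signalling, SOX2 occupied 4 (15.4%) and the fusion 12 (46.2%, 28.8 to 64.5), with all 4 in common. YAP1, the Hippo coactivator, had 1 SOX2 and 5 fusion peaks, and its relative WWTR1 had 0 and 3. The DNA-binding partners TEAD1 and TEAD4 had 4 and 3 fusion peaks. VGLL4, which competes with YAP1 for TEAD, had 3, with the strongest at a −log10 p of 5.94. CCN1, a YAP target gene, had a SOX2 peak 530 bp beyond an end and 2 fusion peaks, one of them 161 bp from the other end. Of the AP-1 subunits FOSL2 was occupied by both, though its SOX2 peak (−log10 p 2.24) overlapped no fusion peak. JUNB and JUND were occupied by the fusion alone with 1 weak peak each (−log10 p 2.43). ATF3, also of this list, had 1 SOX2 peak (−log10 p 1.92), which overlapped a fusion peak, and 2 fusion peaks. The combined fusion list occupied 5 of the 12 as well, namely FOSL2, VGLL4, AMOTL2, YAP1 and TEAD4. It overlapped the strongest first-replicate fusion peak at YAP1 but not at FOSL2, VGLL4, AMOTL2 or TEAD4.

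**Figure D5:**
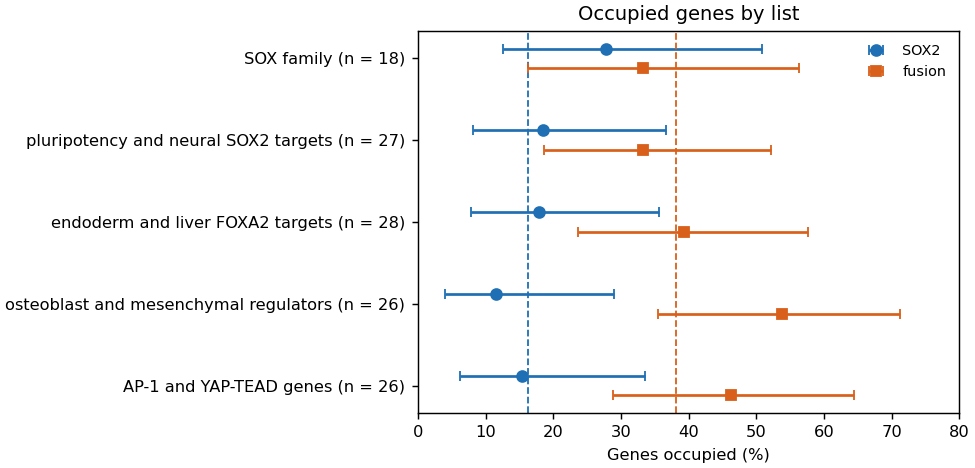
Share of the genes of each list (y axis, with the number of genes) that were occupied (x axis, percent) with SOX2 (circles) and the fusion (squares); bars are 95% Wilson intervals over genes. The dashed lines mark all protein-coding genes, 16.3% for SOX2 and 38.2% for the fusion, and the interval of every list includes the line of its own protein.

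Among peaks found in both first-replicate lists and both combined lists, away from gene-free stretches and the genes of the expressed factors, 40 remained. By its rank in the SOX2 list the strongest lay within TRAPPC9, a gene of vesicle transport, at 140156589 to 140157571 of chromosome 8. It was the highest peak of both lists, with a fold enrichment of 21.5 for SOX2 and 25.5 for the fusion. Next were a peak 6 kb from ZNF658 on chromosome 9 at 66937641 to 66938664 (8.65 and 12.9) and one on chromosome 17 at 62120981 to 62122031 nearest to MED13 (6.99 and 8.63). The fourth, on chromosome 22 at 26660797 to 26661544, lay 30.5 kb from the lens crystallin gene CRYBA4 (6.07 and 9.07).

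By the same rule 2740 peaks were found in both fusion lists and neither SOX2 list, and 11 in both SOX2 lists and neither fusion list. These counts too rest on combined lists that end at unlike IDR values. The fusion's strongest lay 284 kb from RWDD3 at 95531403 to 95531929 of chromosome 1, its fold enrichment being 11.2 and its rank 21. The others were at 105841075 to 105841463 of the same chromosome (8.48), at 25881588 to 25882057 of chromosome 20, nearest to ZNF337 (7.57), and at 62356445 to 62357005 of chromosome 6, nearest to KHDRBS2 (6.58). All 4 lay more than 50 kb from a protein-coding gene. Among SOX2's own strongest were a peak nearest to CCDC200 on chromosome 17 (3.49, rank 887), one within ABCC2 on chromosome 10 (4.01) and one within CYRIB on chromosome 8 (3.59).

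At gene ends lay 9 of the 40 recurrent peaks of both proteins and 451 of the 2740 of the fusion alone. The latter is the smaller share of its class, but the former rests on 9 peaks. No interval was determined for these shares, so they do not show a difference or a change from the full first-replicate lists. Those of both were led by ADRM1, a ubiquitin receptor of the proteasome, with a summit 178 bp before its start and a −log10 p of 5.85 for SOX2 and 7.98 for the fusion. YDJC (4.90 and 4.98), HEMK2 (4.84 and 3.18), EXD3 (4.73 and 4.81) and GUCD1 (4.00 and 5.61) followed. NOXA1 also has an end within 1 kb of the EXD3 summit, and SNRPD3 of the GUCD1 summit. The fusion's own were led by ZNF106, near which SNAP23 also has an end within 1 kb, with a summit 105 bp before the start and a −log10 p of 11.2. VANGL2, a planar cell polarity gene, had 7.98 with a summit 131 bp before the start. TSC1, a brake on mTOR signalling with GFI1B within 1 kb of the summit, and ZNF335, a component of H3K4 methyltransferase complexes, both had 7.65. CDK12, a kinase of RNA polymerase II elongation, had 7.22. For SOX2 alone there were 2 of 11, at SEZ6L (3.46) and CEP192 (3.03).

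The fusion carries the CTD of FOXA2, so its sites were set beside those of FOXA2. Of the fusion peaks without a SOX2 peak, 8.76% (8.46 to 9.08) overlapped a peak of the combined list of full-length FOXA2. SOX2 peaks without a fusion peak did so in 19.9% (18.6 to 21.3), and shared SOX2 peaks in 15.3% (14.6 to 16.0). The difference, fusion minus SOX2 among peaks in a single list, was -11.1 points (-12.5 to -9.80). Outside the gene-free stretches the shares were 8.20% and 14.4%, a difference of -6.24 points (-7.60 to -4.97). With FOXA2 lacking its CTD as the reference, the shares were 9.56% and 19.9%. The difference was -2.68 points when overlap had to cover 50% of both peaks.

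At the genes of the factors themselves, over SOX2, on chromosome 3, both first-replicate lists had a peak inside the gene, at 181712372 to 181713231 for SOX2 and 181712401 to 181713301 for the fusion, with a −log10 p of 3.62 in each. Over FOXA2, the list of the fusion alone had a peak, at 22582504 to 22583195 of chromosome 20 within the gene. Its −log10 p was 5.26, rank 5942 of 42289 in the fusion list, while its fold enrichment was 1.47. Only 0.00946% of the fusion's peaks had a lower fold. Over FOXA1 both had a peak, at 37591968 to 37592165 and 37591812 to 37592531 of chromosome 14, and FOXA3 had none. Whether these reads came from the transgene or from the chromosome was not tested.

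The combined lists end at unlike IDR values, 0.1 for SOX2 and 0.912 for the fusion, and no common limit was applied here. How far the first replicate's peaks recurred in the combined list of their own group differed between these lists. For SOX2, 267 of 13788 did (1.94%, 1.72 to 2.18), and for the fusion 4429 of 42289 (10.5%, 10.2 to 10.8). Outside the gene-free stretches the shares were 0.818% and 10.1%. More SOX2 peaks, 12.5% (12 to 13.1), overlapped the combined list of the fusion than that of SOX2. Among shared SOX2 peaks this share was 15.2%, and among those without a fusion peak 4.63%. Few SOX2 peaks thus recurred in the combined SOX2 list, while 74.8% overlapped a first-replicate fusion peak. The combined SOX2 list is no subset of the first replicate's: on chromosome 13 it held 346 peaks, against 187 in the first replicate's list. Whether both lists came from the same peak calls was not tested.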

How the data were processed

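Flag ChIP-seq peak lists of U2OS cells were used as deposited. Per the submitters' processing notes, hg38, Bowtie2 2.4.4, SAMtools 0.1.18, Trim Galore, FastQC 0.10.1, deepTools 2.4.1 and MACS2 were named, without role or order. The control, thresholds and read depths are not given in the sources used here. The deposited first-replicate lists hold, for every peak, a fold (ratio) of enrichment and the −log10 of its p-value and its q-value, all made by the authors. The deposited combined lists, in the layout of the IDR program, give the −log10 p of the weaker replicate and the −log10 IDR. Of the lists, 6 were used. Fold and p rank peaks within a list. Where values or a common limit of both lists stand side by side they are the authors' own, are not on a common scale of depth, and show no change in binding.

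Positions are 1-based on GRCh38. Genes came from RefSeq GRCh38.p14 (59094 genes on chromosomes 1 to 22 and X, without strand or exons), so gene ends stand for starts. A genome was not used here, so motifs were counted in promoter windows in place of peaks (none for the 714 protein-coding genes of chromosome 8). Gene-free stretches, 164.4 Mb, are the longest without an annotated gene on each chromosome. Shares have Wilson 95% intervals and differences Newcombe intervals, with no test between replicates. Overlap functions were tested on simulated data (Python 3.11.15, pandas 2.3.3, numpy 2.4.6). Alternatives included other lists, filters, overlaps and gene rules. Samples were grouped by title.

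Named peaks and gene ends were the strongest in each class that recurred in the combined list of their group. The 4 strongest peaks and 5 strongest gene ends per class were taken, outside gene-free stretches and not within 10 kb of SOX2 or a FOXA gene. Named long genes were the 5 over 100 kb with most peaks per 100 kb in each list. Of the gene lists, the rule named genes occupied in both lists of a group, and other genes and the windows were named after their values were seen. Some items that these rules name are not reported here. The members and lists were chosen with earlier results of these data known.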

Additional observations from a re-analysis of the deposited data

Results flagged for a closer look

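Outside chromosomes 1 to 22 and X the first-replicate lists held 189 SOX2 and 416 fusion peaks. They are listed because no comparison used them, and no number of peaks was predicted for these sequences.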

How the results depend on the processing

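Of 70 alternative values over 9 results, 18 stayed within the counting interval, 49 moved and 3 changed direction. With the combined lists the peak ratio (fusion over SOX2) was 5.75, the shared share of SOX2 peaks 76.7%, that of fusion peaks 13.6%, the ratio of occupied genes 34.0 and the share of SOX2 genes found with the fusion 71.1%. The differences (fusion minus SOX2) were then 8.03 points at gene ends and 29.7 inside genes. With a −log10 p of at least 5 in both lists these 7 values were 3.49, 70.2%, 20.2%, 3.18, 84.1%, 0.602 and 4.35, and the FOXA2 overlap difference was -23.1. With a fold of at least 3 the first 6 were 2.89, 72.8%, 25.1%, 2.25, 90.1% and 1.79, and the SOX motif difference was -29.2. That difference was -10.2 (-22.9 to 2.80) with equal numbers of the strongest peaks, -21 (-50.2 to 5.15) with the combined lists and -15.8 (-45.8 to 19.3) with a −log10 p of at least 5. With equal numbers of the strongest peaks the shared shares were 48.4% and 48.0%, the gene ratio 1.06, its shared share 69.7%, the gene end difference 0.0508 and the FOXA2 difference -7.97. Outside the gene-free stretches the peak ratio was 3.25, the shared shares 77.0% and 23.7%, the FOXA2 difference -6.24, and the difference inside genes reversed to -0.969. A reciprocal overlap of 50% gave 55.2%, 18% and a FOXA2 difference of -2.68, and summits within 100 bp gave 46.8% and 15.3%. All annotated genes gave a gene ratio of 2.53 with 90.6% shared, and differences of 2.73 at gene ends and 2.82 inside genes. A summit in the gene span alone gave a gene ratio of 2.21, and gene ends alone 5.40 with 72.5% shared.

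Chosen after seeing the data were combined lists at an IDR of at most 0.1, where the peak ratio reversed to 0.569, gene starts alone (1.79), the lists without chromosome X (3.03), and combined lists outside the stretches. The last gave a peak ratio of 47.7, shared shares of 41.7% and 0.890%, a gene ratio of 34.0 and a gene end difference that reversed to -8.07. The cause was not tested. No paired analysis was possible because each group has 1 first-replicate list and the combined lists carry no replicate. For the same reason no replicate could be left out. Read depth is unknown, which limits every comparison of peak number.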
